A study of Mus musculus with 2 samples.

Results

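The 10 genes described here encode 2 sets of fatty acid enzymes of the mouse hepatocyte, 6 cytochrome P450 enzymes of the Cyp4a subfamily (Cyp4a10, Cyp4a14, Cyp4a31, Cyp4a32, Cyp4a12a and Cyp4a12b) and 4 acyl-CoA thioesterases (Acot1, Acot2, Acot3 and Acot4). They were taken by symbol from the 31053 genes of the deposited count matrices. They had been chosen because earlier results of these data showed them higher under the diet, so their differences between diets are a description and support nothing. The study compared single liver cells of C57BL/6 mice given chow with those of mice given a NASH diet, named for non-alcoholic steatohepatitis and rich in fructose, fat and cholesterol, each for 6.5 weeks. Cells were freed with collagenase and separated on Percoll to recover non-parenchymal cells and hepatocytes of several densities, and were read with a 10x Genomics 3' kit, in which each unique molecular identifier (UMI) stands for 1 captured RNA molecule. There was 1 library per diet, and the sources used here do not give how many mice entered each or their sex and age. No difference between diets was therefore tested, and diet and library cannot be told apart. All intervals are exact 95% intervals that cover counting error only and leave out the spread between cells and between animals.

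Cyp4a enzymes sit in the endoplasmic reticulum and add a hydroxyl group to the terminal carbon of fatty acids, the first step of omega-oxidation, with electrons from cytochrome P450 reductase. The alcohol is then oxidised to a dicarboxylic acid by alcohol and aldehyde dehydrogenases, and the product can be shortened in peroxisomes. Acyl-CoA thioesterases release free fatty acid and coenzyme A from acyl-CoA, with Acot1 in the cytosol, Acot2 in mitochondria and Acot3 and Acot4 in peroxisomes. Cyp4a10, Cyp4a14 and the Acot1 family are well-known targets of PPAR-alpha, the fatty acid receptor of the hepatocyte, which binds DNA with a retinoid X receptor at direct repeats of a short motif. Cyp4a12a is the male-biased form of mouse liver.

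Each set forms a cluster on 1 chromosome. In the GENCODE M21 annotation of GRCm38, Cyp4a12a (chr4:115299046-115332815), Cyp4a12b (chr4:115411624-115439034), Cyp4a14 (chr4:115486200-115496142), Cyp4a10 (chr4:115518264-115533649), Cyp4a31 (chr4:115563649-115579015) and Cyp4a32 (chr4:115600969-115621602) follow each other, with Cyp4a14 on the minus strand and the others on the plus strand. Acot2 (chr12:83987861-83993873), Acot1 (chr12:84009490-84018371), Acot4 (chr12:84038379-84048601) and Acot3 (chr12:84052144-84060402) all lie on the plus strand. RefSeq start sites on GRCm38.p6 were matched for 5 of the 10 genes, namely Cyp4a32 and the 4 Acot genes. The 250 bases before the start sites of Acot1 and Acot4 are printed because these 2 neighbours had the largest and the smallest difference between diets within the Acot set. Capitals mark the best match, on either strand, to a direct repeat of AGGTCA, in which 2 copies are separated by any 1 base, so that 12 letters are fixed.
Acot1, chr12:84009252-84009501, plus strand: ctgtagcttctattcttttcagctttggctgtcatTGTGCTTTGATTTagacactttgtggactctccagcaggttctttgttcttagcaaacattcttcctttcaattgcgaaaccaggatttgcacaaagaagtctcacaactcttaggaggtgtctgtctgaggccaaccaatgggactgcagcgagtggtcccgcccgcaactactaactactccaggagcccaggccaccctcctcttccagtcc
Acot4, chr12:84038129-84038378, plus strand: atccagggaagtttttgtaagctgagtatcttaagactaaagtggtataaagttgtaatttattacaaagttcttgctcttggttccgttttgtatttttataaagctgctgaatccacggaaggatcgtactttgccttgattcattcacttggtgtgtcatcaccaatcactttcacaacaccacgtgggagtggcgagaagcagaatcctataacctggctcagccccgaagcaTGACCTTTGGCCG

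The match in Acot4, TGACCTTTGGCCG, lies on the minus strand in the last 13 bases before the start (chr12:84038366-84038378) and has 10 of the 12 letters. A match that good or better was found in 3.24% of 32851 RefSeq promoters of 250 bases. The motif AGGTCA by itself, on either strand, occurred once in the Acot4 window, as the TGACCT that begins this same match. It occurred in 14.02% of promoters, and in none of the windows of Acot1, Acot2, Acot3 and Cyp4a32. The best match of Acot1, TGTGCTTTGATTT, starts 215 bases before the start site, also on the minus strand, and has 8 of 12 letters, a level reached by 74.5% of promoters. Acot2 and Cyp4a32 reached 9 letters, as did 21.3% of promoters, and Acot3 reached 8. Such matches are descriptions of these windows, and binding at them was not tested.

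Near-identical members can share reads, which bears on every value below. Over their longest open reading frames, Cyp4a12a and Cyp4a12b were 98.7% identical, Cyp4a10 was 97.2% identical to Cyp4a32 and 96.6% to Cyp4a31, and Acot1 was 95.7% identical to Acot2, while Cyp4a10 and Cyp4a14 were 80.03% identical. Because the kit reads the 3' end, windows of 91 bases in the last 500 bases of each annotated transcript were compared. The share of such windows found in another member was 46.6% for Cyp4a32, 30% for Cyp4a12a and for Cyp4a12b, 5.28% for Cyp4a31, 2.93% for Acot1 and 0% for Cyp4a10, Cyp4a14, Acot2, Acot3 and Acot4. The only annotated transcript of Cyp4a32 had 1530 bases, with an open reading frame of 1527, so its last 500 bases were coding sequence. The longest transcripts of the other Cyp4a genes had 2109 to 2509 bases. The separate values of Cyp4a32 and of the 2 Cyp4a12 genes are therefore uncertain. For this reason sums are given beside single genes, 1 for Cyp4a10, Cyp4a14, Cyp4a31 and Cyp4a32 (called the Cyp4a10 group), 1 for Cyp4a12a and Cyp4a12b (the Cyp4a12 pair), and 1 for the 4 Acot genes.

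The chow library held 7359 barcodes and 71635757 UMIs and the NASH diet library 5881 and 39440182. After filters, 4041 and 2305 barcodes were kept, of which 2072 chow and 1056 NASH diet cells fell in clusters named hepatocyte-like from albumin and other plasma protein genes, with a median of 23676 and 20473 UMIs. Most of these clusters were almost wholly of 1 library, clusters 0, 2, 6, 7 and 10 of chow and 3, 14 and 17 of the NASH diet. The exception was the small cluster 16, led by interferon response genes such as Rsad2 and Ifit1, with 7 chow and 8 NASH diet cells. The median mitochondrial share of UMIs in the class was 18.1% and 23.4%. A further 1751 and 1000 low-UMI barcodes stayed unnamed, and 69 barcode sequences occurred in both libraries, 1 of them in this class.

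UMIs of a 3' kit are counted per molecule, so levels are given as CPM, UMIs per 1000000 UMIs of the same cells, and those of different genes are set side by side without a length correction. In hepatocyte-like cells the main PPAR-alpha-responsive Cyp4a genes were the most abundant members under the NASH diet and stood below both Cyp4a12 genes under chow. Cyp4a10 had 977 chow UMIs and 11769 under the diet. Its level was 20.8 CPM (19.6 to 22.2) and 527 CPM (518 to 537), which is 25.3-fold higher (23.7 to 27.0). Cyp4a14, a second inducible omega-hydroxylase, had 759 and 5775 UMIs, 16.2 and 259 CPM, 16.0-fold higher (14.8 to 17.2). In chow, 12.9% of all Cyp4a14 UMIs came from 1 cell, against 1.99% under the diet. Cyp4a31 was much lower, at 184 and 261 UMIs or 3.93 and 11.7 CPM, 2.98-fold higher (2.46 to 3.62). Cyp4a32 was hardly read, with 10 and 9 UMIs, and the interval of its ratio ran from 0.679 to 5.17. The part of its short annotated transcript in these low counts was not tested. Within the Cyp4a10 group the share of Cyp4a10 was 50.6% of UMIs in chow and 66.1% under the diet, that of Cyp4a14 39.3% and 32.4%, and that of Cyp4a31 9.53% and 1.47%. The group as a whole stood at 41.2 and 798 CPM, 19.4-fold higher (18.5 to 20.3).

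The Cyp4a12 pair had the highest level of the 3 sums in chow and the smallest difference. Cyp4a12a had 5368 and 4916 UMIs, 115 and 220 CPM, 1.92-fold higher under the diet (1.85 to 1.998). For Cyp4a12b there were 1143 and 2487 UMIs, 24.4 and 111 CPM, 4.57-fold higher (4.26 to 4.90). Cyp4a12b thus made up 17.6% of the pair's UMIs in chow and 33.6% under the diet, a split that reads shared between the genes could affect in either library. The pair summed to 139 and 331 CPM, 2.39-fold higher (2.31 to 2.47).

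The 4 thioesterases differed in level order between the diets. Acot4, which acts on succinyl-CoA and dicarboxylyl-CoA in peroxisomes, held 71.6% of the Acot UMIs in chow, at 778 UMIs or 16.6 CPM, and 32% under the diet, at 1084 UMIs or 48.5 CPM, 2.92-fold higher (2.66 to 3.21). Acot1, the cytosolic long-chain form, had 163 and 1572 UMIs, 3.48 and 70.4 CPM, 20.2-fold higher (17.2 to 23.9), and held 15.01% and 46.4%. Acot2, the mitochondrial form, had 99 and 377 UMIs, 2.11 and 16.9 CPM, 7.99-fold higher (6.39 to 10.1). Acot3, a peroxisomal long-chain form, had 46 and 354 UMIs, 0.981 and 15.9 CPM, 16.2-fold higher (11.9 to 22.5). The order was therefore Acot4, Acot1, Acot2, Acot3 in chow. Under the diet it was Acot1, Acot4, then Acot2 and Acot3, whose intervals overlapped (15.2 to 18.7 and 14.2 to 17.6 CPM). The 4 genes summed to 23.2 and 152 CPM, 6.55-fold higher (6.11 to 7.02).

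**Figure D1:**
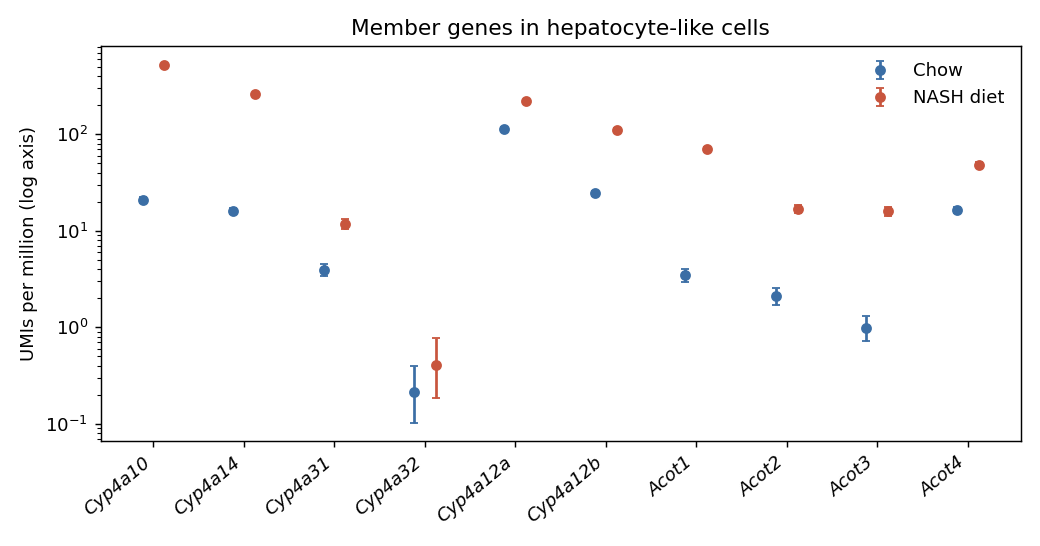
Level in CPM over hepatocyte-like cells (log axis) for the 10 members in the chow library (blue) and the NASH diet library (red), with exact 95% Poisson intervals, 1 library each. Every red point lies above its blue point, and the intervals overlap for Cyp4a32 alone.

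Of the 9 members with at least 100 UMIs over both libraries, 8 were at least 2-fold higher under the diet and 0 were at most 0.5 of chow, with Cyp4a12a just under 2-fold. Among all 9839 genes with that many UMIs, 3.74% were at least 2-fold higher and 2.84% at most 0.5 of chow. Since the genes were chosen on this contrast, nothing is read from these counts. By ratio, Cyp4a10 ranked 9, Acot1 10, Acot3 13, Cyp4a14 14 and Acot2 24 of 9839 from the highest, and Cyp4a12b 60, Cyp4a31 132, Acot4 139 and Cyp4a12a 412. The median log2 ratio was 3.00 over the members and 0.11 over all genes tested.

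To compare cells at equal depth, each hepatocyte-like cell was thinned at random to 5000 UMIs, which left 1839 chow and 1022 NASH diet cells and left out 233 and 34 shallower ones. A UMI of the Cyp4a10 group was then present in 12.9% of the chow cells (11.4 to 14.5) and 68.7% of those under the diet (65.8 to 71.5), against 31.4% and 85.4% without thinning. Clusters of endothelial, phagocyte and mesenchymal cells, which should lack these genes, had such a UMI in 0.571% of 175 chow and 10.8% of 167 NASH diet cells at a median of 4140 and 3603 UMIs. A neutrophil-like cluster led by S100a9 and S100a8, which also had the hepatocyte gene Nr1i3 among its leading genes and albumin (Alb) at 16935 and 6870 CPM, was left out of that background. In it 3 of 24 chow and 42 of 77 NASH diet cells had a UMI of the Cyp4a10 group, at 27.2 and 658 CPM and a median of 3268 and 4113 UMIs per cell. For Cyp4a10 alone the thinned shares were 7.50% and 61.0%, for Cyp4a14 5.11% and 41.2%, and for Cyp4a31 2.01% and 5.87%. The Cyp4a12 pair was found in 39.4% of chow and 61.9% of NASH diet cells, against 1.14% and 4.79% of the non-hepatocyte cells. The Acot genes were found in 11.2% and 40.8%, with Acot4 in 8.37% and 19.1% and Acot1 in 1.69% and 21.1%. The same non-hepatocyte cells, which were not thinned, carried an Acot UMI in 17.1% and 19.2%, and those in the phagocyte-like cluster numbered 24 in chow and 18 under the diet. For Acot4 their share was 2.29% and 0.599%, and for Acot1 it was 9.71% and 10.8%.

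Cells of 1 library differed widely in the Cyp4a10 group. Under the diet the thinned count had a median of 2, a 90th percentile of 10 and a highest value of 33, and 31.3% of cells had none. Cells with at least 5 thinned UMIs were 282 of 1022 (27.6%) and held 76.0% of the group's thinned UMIs. In chow 87.1% of cells had none, and the 8 of 1839 cells (0.435%) with at least 5 held 17.3% of the group's thinned UMIs. The highest of these had 21, and none of the 8 had a barcode sequence that also occurred in the other library. The tenth of thinned cells with the most UMIs of the group held 85.7% of its thinned UMIs in chow and 41.4% under the diet, and without thinning the tenth of all hepatocyte-like cells with the most held 72.2% and 46.7%. Variance over mean of the thinned counts, which is 1 for counting noise alone, was 3.17 in chow and 6.05 under the diet for the Cyp4a10 group, 1.72 and 1.82 for the Cyp4a12 pair, and 1.11 and 1.84 for the Acot genes. The mean thinned count, with which this ratio moves, was 0.202 and 3.46 UMIs per cell for the Cyp4a10 group, 0.658 and 1.43 for the Cyp4a12 pair and 0.125 and 0.711 for the Acot genes.

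**Figure D2:**
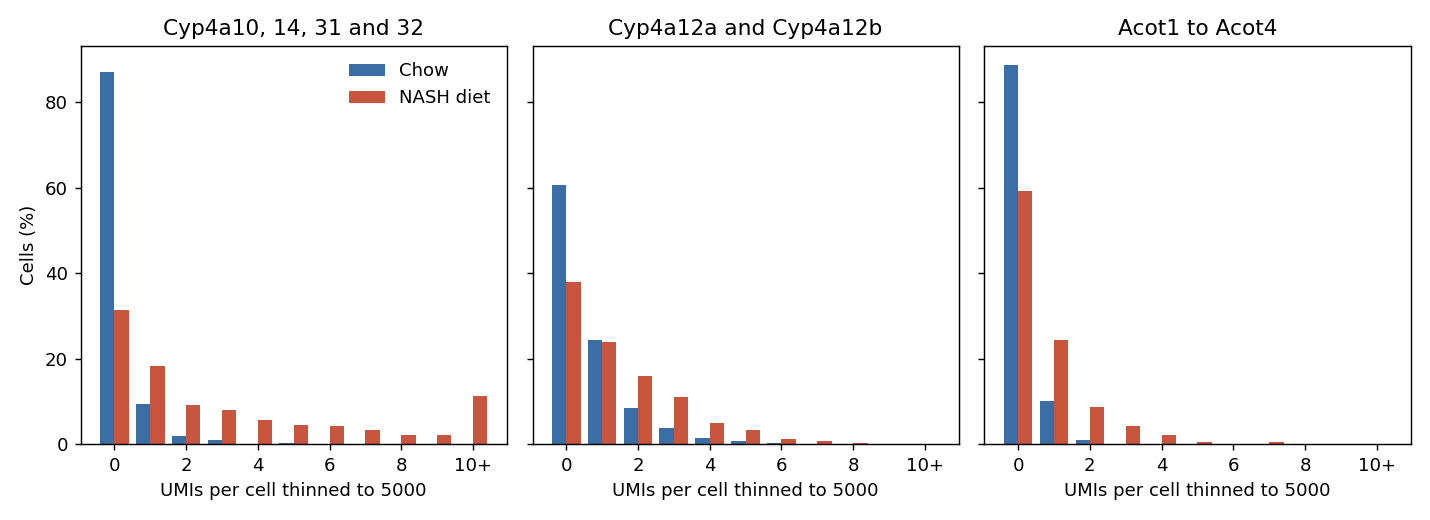
Percentage of hepatocyte-like cells (y axis) by the number of UMIs of each sum after thinning every cell to 5000 UMIs (x axis), for 1839 chow cells (blue) and 1022 NASH diet cells (red), with cells of 10 or more in the last bin. For the Cyp4a10 group 87.1% of chow and 31.3% of NASH diet cells are at 0, and the red bars reach into the last bin.

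Hepatocytes along the axis from portal to central vein express different enzymes. Within each library, cells were ordered by 10 pericentral minus 10 periportal zone genes, none of them a member, and cut into 3 groups of 690 or 691 chow and 352 NASH diet cells, called periportal, middle and pericentral. These are ranges of a score and not cell types, and 323 chow and 184 NASH diet cells lay within 0.1 of a boundary. Of 10 zone genes kept out of the score, Cyp2c37, Cyp2c50, Cyp2c54, Cyp7a1 and Tbx3 were higher in the pericentral and Cps1, Arg1, Aldh1b1, Pigr and Fbp1 in the periportal group of both libraries. The median mitochondrial share was 17.8%, 17.3% and 19.8% from periportal to pericentral in chow and 24.3%, 23.4% and 21.9% under the diet.

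The Cyp4a10 group was highest in the pericentral group under both diets. In chow it stood at 24.9, 28.7 and 71.2 CPM in the periportal, middle and pericentral group, 2.86-fold higher pericentrally (2.56 to 3.20). Under the diet it stood at 383, 422 and 1437, 3.75-fold (3.601 to 3.91). The periportal group of the NASH diet library thus lay above the pericentral group of chow. Cyp4a10 had 10.6, 13.6 and 39.1 CPM in chow and 246, 280 and 954 under the diet, a pericentral to periportal ratio of 3.67 (3.12 to 4.34) and 3.87 (3.68 to 4.08). Cyp4a14 had 10.4, 10.5 and 28.0 in chow and 123, 131 and 471 under the diet, with ratios of 2.70 and 3.83. Cyp4a31 showed no such order, at 3.77, 4.25 and 3.83 in chow and 13.2, 10.4 and 11.3 under the diet, and the intervals of its ratios, 0.705 to 1.46 and 0.640 to 1.15, both included 1. The diet ratio of the Cyp4a10 group was 15.4 in the periportal, 14.7 in the middle and 20.2 in the pericentral group. In chow 1 cell held 7.62% of the UMIs of the Cyp4a10 group, and 1 cell held 12.9% of those of Cyp4a14. The intervals leave out such a spread between cells, and its part in the chow zone ratios was not tested.

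The Cyp4a12 pair also had its highest level in the pericentral group and its lowest in the middle group. It stood at 95.02, 73.2 and 248 CPM in chow and at 226, 199 and 521 under the diet, with ratios of 2.61 (2.46 to 2.76) and 2.31 (2.18 to 2.44). Cyp4a12a had nearly the same ratio in both libraries, 2.38 and 2.36. That of Cyp4a12b was 4.03 in chow (13.2, 6.41 and 53.2 CPM) and 2.20 under the diet (79.4, 63.4 and 175). The diet ratio of the pair was 2.38, 2.72 and 2.11 in the 3 groups. The middle groups were the shallowest, with a median of 19782 UMIs in chow and 18291 under the diet. NASH diet cluster 14, with the pair at 26.0 CPM, had 12.9% of its 116 cells in the pericentral and 10.3% in the periportal group. Chow cluster 7, with the pair at 22.7 CPM, had 34.7% and 6% of its 300 cells there. The part of these cells in the low middle values was not tested.

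Among the Acot genes the order along the axis was not the same under both diets. Their sum stood at 20.8, 21.0 and 27.8 CPM in chow, 1.33-fold higher pericentrally (1.16 to 1.54), and at 59.3, 78.1 and 286 under the diet, 4.82-fold (4.36 to 5.36). Acot4 was level in chow, at 17.2, 16.8 and 15.8, a ratio of 0.919 (0.773 to 1.09), and stood at 31.7, 31.9 and 75.6 under the diet, a ratio of 2.39 (2.05 to 2.79). Acot1 was pericentral in both, at 0.942, 1.79 and 7.92 in chow and 14.3, 26.3 and 152 under the diet, with ratios of 8.41 (5.04 to 14.9) and 10.6 (8.68 to 13.0). Acot2 had 1.44, 1.71 and 3.25 in chow, from 99 UMIs in all, and 6.55, 11.3 and 29.9 under the diet, with ratios of 2.25 (1.38 to 3.77) and 4.57 (3.35 to 6.36). Acot3 had 1.27, 0.745 and 0.844 in chow, from 46 UMIs in all, and 6.82, 8.52 and 29.1 under the diet, with ratios of 0.662 (0.308 to 1.36) and 4.27 (3.14 to 5.91). The diet ratio of the Acot sum was 2.85 in the periportal, 3.72 in the middle and 10.3 in the pericentral group. At equal depth an Acot UMI was present in 9.84%, 11.7% and 12.3% of chow cells and in 23.0%, 31.3% and 69.0% of NASH diet cells from periportal to pericentral. With 1 library per diet, this difference in zonation between the libraries was not tested.

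**Figure D3:**
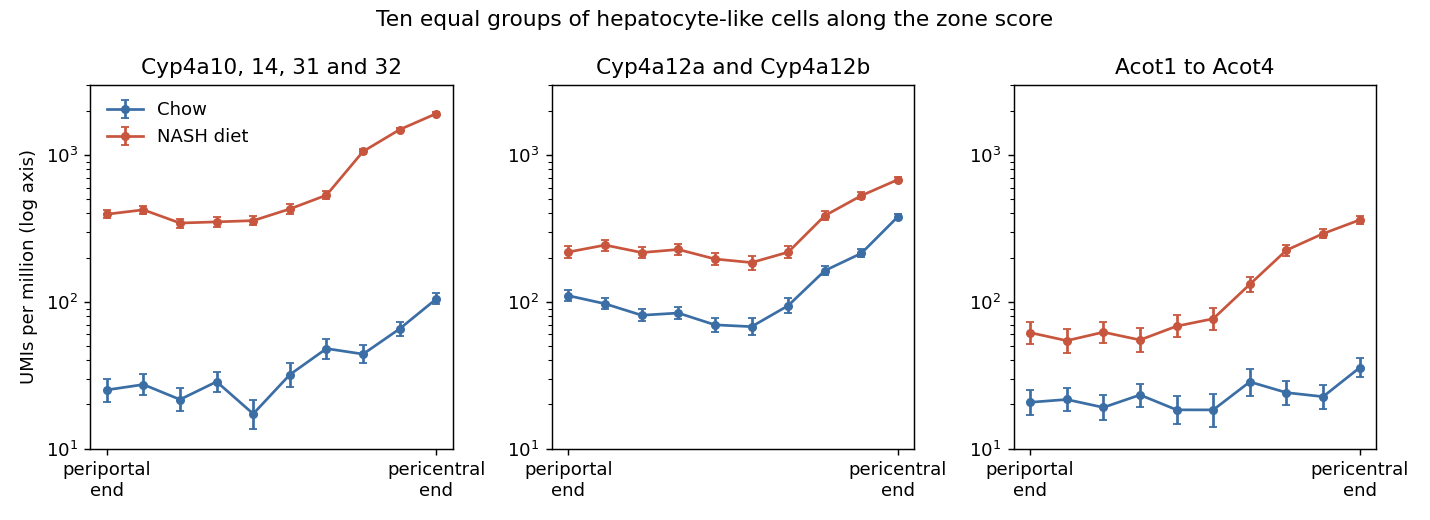
CPM (log axis) in 10 groups of equal size along the zone score, from the periportal to the pericentral end, for the 3 sums, with exact 95% Poisson intervals. The Cyp4a10 group and the Cyp4a12 pair are highest at the pericentral end in both libraries, and the Acot sum climbs steeply in the NASH diet library (red) and little in chow (blue).

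Of the members with at least 100 UMIs over the 2 outer zone groups of a library, 5 of 7 in chow were at least 2-fold pericentral, against 3.09% of 8701 genes, and Cyp4a31 and Acot4 were not. Under the diet 8 of 9 were, against 4.78% of 7409 genes, and Cyp4a31 was not. Cyp4a32 had fewer UMIs in both libraries and Acot2 and Acot3 in chow. None of those counted was at most 0.5 of the periportal level, against 2.34% and 1.77% of genes. Some members reached the minimum mostly through the pericentral group, where they were high. These were Acot1 in chow, with 17 periportal and 122 pericentral UMIs, and under the diet Acot2 (48 and 256) and Acot3 (50 and 249). Nothing is therefore read from these counts. Aldh3a2, the fatty aldehyde dehydrogenase of a later step, was zoned far more steeply than any member, at 1.44 CPM in the periportal and 133 in the pericentral group of chow and 9.41 and 725 under the diet. Ppara itself was only 1.31-fold and 1.25-fold higher pericentrally.

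Cyp4a10, Cyp4a14 and the Cyp4a12 pair had higher correlations over cells under the diet, where they also had more UMIs per cell. Correlations over cells of 1 library are descriptions, since these cells share library, thinned depth and free RNA. Between Cyp4a10 and Cyp4a14 the Pearson correlation of log thinned counts was 0.26 in chow (1839 cells) and 0.59 under the diet (1022 cells). Within the periportal, middle and pericentral group of the NASH diet library it was 0.40, 0.54 and 0.51. Cyp4a14 was found in 56.8% of NASH diet cells with a Cyp4a10 UMI and in 16.8% of those without, and in 18.1% and 4.06% of chow cells. Between the Cyp4a10 group and the Cyp4a12 pair it was 0.15 in chow and 0.48 under the diet, with 0.23, 0.29 and 0.49 in the NASH diet zone groups. The relation of the Cyp4a10 group to the Acot sum was weaker, 0.08 and 0.35, and within the NASH diet zone groups it was 0.12, 0.07 and 0.24, below the pooled value in each. Acot1 and Acot3 gave 0.21 under the diet. Cyp4a31, found in few cells, lay between -0.03 and 0.10 in chow and between -0.06 and 0.02 under the diet with the other members plotted.

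**Figure D4:**
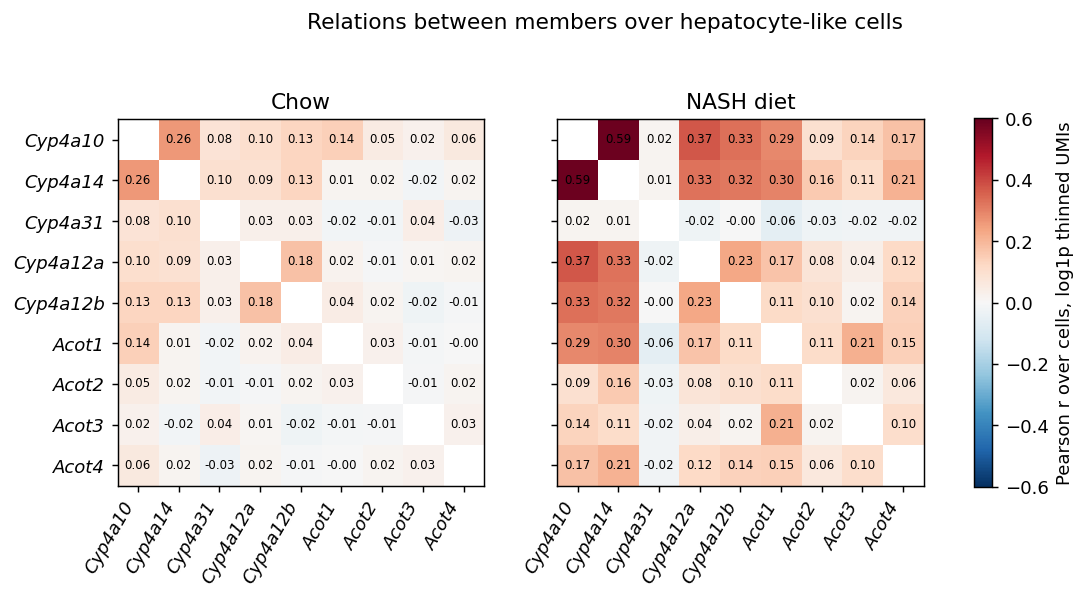
Pearson correlations (colour scale from -0.6 to 0.6) of log thinned UMIs between 9 members over 1839 chow and 1022 NASH diet hepatocyte-like cells, without Cyp4a32, which had too few UMIs. The pair of Cyp4a10 and Cyp4a14 is the darkest cell in both panels, at 0.26 and 0.59.

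Of 2550 genes ranked by correlation with the Cyp4a10 group under the diet, the closest included Cyp3a11 (0.58), Cyp2c29 (0.57), Cyp2c50 (0.57) and Cyp2e1 (0.54). Their chow values were 0.18, 0.15, 0.13 and 0.16. For the Acot sum the closest were Rgn (0.47), Aldh3a2 (0.47), Oat (0.46), Cyp2c29 (0.44) and Cyp2e1 (0.43), with 0.02 to 0.05 in chow. Of these, Cyp2e1, Cyp2c29, Oat and Rgn are genes of the pericentral score.

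The genes around these enzymes were read from lists of the pathway. Of 4 other Cyp4 genes with enough UMIs out of 14, 0 passed 2-fold in either direction, and Cyp4v3, an omega-hydroxylase of medium-chain fatty acids, stood at 230 and 316 CPM and Cyp4f14, a leukotriene B4 hydroxylase, at 118 and 156. Cyp4f15 stood at 31.8 and 61.8 CPM, 1.95-fold (1.81 to 2.09), and Cyp4f13 at 30.7 and 29.5. Of 10 redox partners and later enzymes of omega-oxidation, 2 were at least 2-fold higher and 0 lower. Both lie directly on the pathway and were picked out after their values were seen. Por, the reductase that feeds electrons to P450 enzymes, stood at 78.1 and 274 CPM, 3.50-fold higher (3.36 to 3.65), and Aldh3a2 at 46.6 and 288, 6.18-fold (5.89 to 6.49). Cyb5a, the most abundant of the list, was 1.61-fold higher, Adh1 1.36-fold, and Cyb5r3 and Adh5 1.32-fold each.

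Of 12 other thioesterases, 8 had enough UMIs and 2 passed 2-fold upward, Acot12 at 38.1 and 81.4 CPM (2.14-fold) and Acot11 at 2.37 and 9.49 (4.01-fold), the latter named after its value was seen. Baat, which conjugates bile acids, was 1.50-fold higher, Acot13 1.56-fold and Them4 1.20-fold. Acyl-CoA synthetases run the reverse reaction, and 2 of 11 read passed 2-fold upward and 1 downward. Acsl1, the main long-chain form of liver, stood at 357 and 1115 CPM, 3.13-fold higher (3.06 to 3.19), and Slc27a2, Slc27a5 and Acsm1 were 1.89-fold, 1.14-fold and 1.09-fold higher. Slc27a1 (2.28-fold) and Acsl3 (26.6 and 9.63 CPM, a ratio of 0.362) were named after their values were seen.

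Ppara stood at 32.4 and 81.3 CPM, 2.51-fold higher (2.34 to 2.68), the only 1 of 8 genes of the receptor list past 2-fold. Its partner Rxra was at 1.07 of chow, Creb3l3 at 1.29, Ncor1 at 0.991 and Hnf4a at 0.700. Of 16 other PPAR-alpha targets read, out of 18 listed, 7 were at least 2-fold higher and 0 at most 0.5 of chow, with a median log2 ratio of 0.97. Acaa1b, a peroxisomal thiolase, stood at 166 and 1418 CPM, 8.53-fold higher, and Fabp1, the liver fatty acid binding protein, was 2.12-fold higher. Of 10 male-biased liver genes, 0 passed 2-fold upward and 2 downward. Mup20 was at 1.21, Mup3 at 1.02, Cyp2d9 at 1.51 and Serpina1e at 0.201 of chow, against 1.92 for Cyp4a12a, and the other gene past the limit, Elovl3, was at 0.324. The Mup and Serpina1 genes, too, have near copies that can share reads. The median log2 ratio was 0.43 for the other Cyp4 genes, 0.42 for the redox partners and later enzymes, 0.61 for the other thioesterases, 0.52 for the synthetases, 0.11 for PPAR-alpha and its partners and -0.16 for the male-biased genes, beside the 0.11 of all genes tested. All these lists were drawn up with earlier results known.

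The mitochondrial share of a cell went with the levels of the Cyp4a10 group and of Acot1 in different ways. In hepatocyte-like cells of up to 10%, 10 to 20% and 20 to 30% mitochondrial UMIs there were 296, 1102 and 674 chow and 123, 176 and 757 NASH diet cells. Cyp4a10 stood at 3.79, 18.3 and 28.9 CPM in chow and at 40.2, 633 and 551 under the diet. Acot1 stood at 11.8, 2.67 and 3.78 in chow and at 107, 101 and 57.6 under the diet. The diet ratio of Cyp4a10 was thus 10.6, 34.6 and 19.1 in the 3 bands, that of Acot1 9.05, 37.8 and 15.2, and that of the Cyp4a12 pair 1.04, 3.27 and 1.94. In the band of up to 10%, chow had only 9 UMIs of Cyp4a10 and 28 of Acot1. The log2 intervals there, 2.40 to 4.59 for Cyp4a10 and 2.60 to 3.81 for Acot1, overlapped those of the band of 20 to 30%, 4.11 to 4.40 and 3.53 to 4.35. Those of the band of 10 to 20%, 4.98 to 5.25 and 4.90 to 5.60, lay above both. For the Cyp4a12 pair the log2 intervals were -0.48 to 0.57, 1.63 to 1.79 and 0.89 to 1.03 in the 3 bands. None of these overlapped another, and the first included 0. Cells of up to 10% were shallower, with a median of 5052 and 11455 UMIs, than those of 10 to 20%, with 28380 and 26505. By depth, in cells of up to 10000, of 10000 to 25000 and of over 25000 UMIs, the diet ratio was 26.6, 19.6 and 21.9 for the Cyp4a10 group, 2.69, 2.02 and 2.80 for the Cyp4a12 pair and 7.78, 5.08 and 8.06 for the Acot sum. In the low-UMI unnamed barcodes Cyp4a10 stood at 9.42 and 75.8 CPM and Acot1 at 9.42 and 113. NASH diet cluster 14, with 116 cells, had Cyp4a10 at 33.6 and Acot1 at 63.4, where cluster 17, with 330 cells of which 92.4% were in the pericentral group, had 967 and 134. In the phagocyte-like cluster, with 90 and 96 cells, Cyp4a10 stood at 0 and 33.0 CPM and Acot1 at 34.2 and 37.7. The part of mitochondrial share in these differences was not tested.

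**Figure D5:**
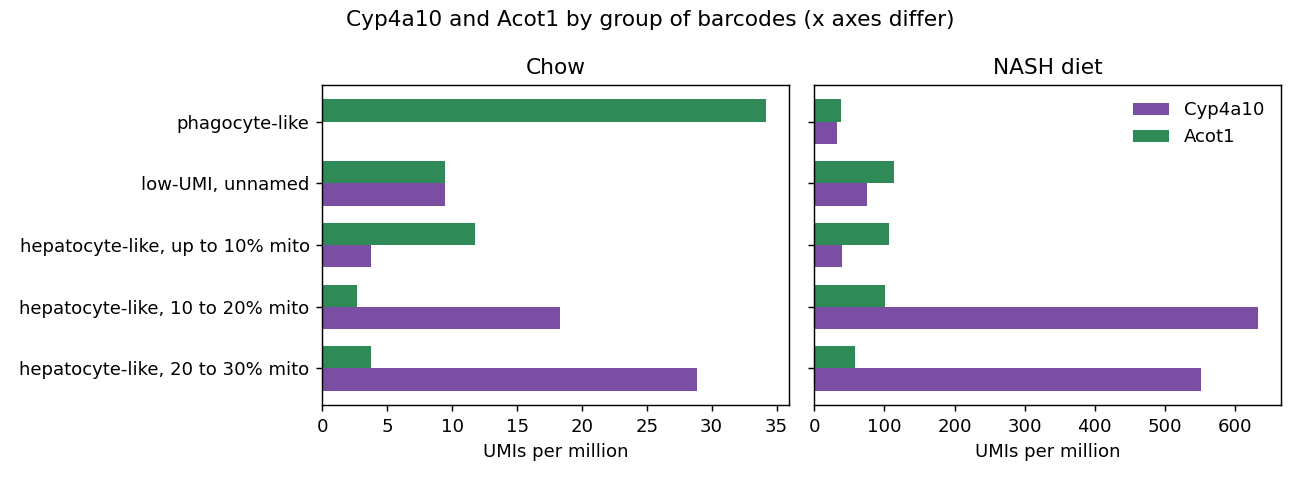
CPM (x axis, scaled differently in the 2 panels) of Cyp4a10 (purple) and Acot1 (green) in hepatocyte-like cells by band of mitochondrial share (mito), in low-UMI unnamed barcodes and in phagocyte-like cells. In both panels Cyp4a10 exceeds Acot1 above 10% mitochondrial UMIs and Acot1 exceeds Cyp4a10 in cells of up to 10%.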

How the data were processed

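The deposited matrices hold raw UMI counts per gene and barcode for 1 chow and 1 NASH diet library. Per the file headers they were written by Cell Ranger software 3.0.2, while the submitters' processing notes name Cell Ranger 3.1.0, Seurat and the build mm10, and the sources used here do not give the annotation. A deposited merged matrix held 86.4% of the chow UMIs and all NASH diet UMIs and served as an alternative. The number of columns not matched to a sample was 0.

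Filters of 200 genes and 500 UMIs as minimum and of 30% mitochondrial UMIs as maximum were met by 4326 chow and 2369 NASH diet barcodes. Scrublet called 0 doublets by its own threshold in each library, so the highest scores were removed at 0.8% per 1000 barcodes. Both libraries were clustered together with scanpy 1.11.5 (2000 variable genes without the members and 84 list genes, 30 components, 15 neighbours, Leiden resolution 1.0). A leftover cluster was named hepatocyte-like where its hepatocyte markers had a mean log2 fold of at least 1 over the non-parenchymal clusters and its median UMI count was at least 1 part in 3 of its library's.

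UMIs were summed over cells and divided by the summed UMIs of the same cells and multiplied by 1000000 (CPM). Levels carry exact Poisson, ratios exact conditional binomial and shares of cells Clopper-Pearson intervals. The calculation of the ratios was checked on simulated Poisson counts. Such counts lack the spread between cells, so that check cannot show how the intervals hold for these data. No p-value was computed, as cells are not replicates. Genes with at least 100 UMIs over the groups compared were counted as 2-fold higher (ratio of at least 2) or lower (at most 0.5). Zone scores were the mean z-score of log counts per 10000 of pericentral minus periportal genes. Of each list, counts and the 4 genes with the highest mean level were named, plus Ppara, except that some genes which the rules name are not reported here. The members, lists and rules were chosen with earlier results of these data known. Alternatives were other mitochondrial limits, the merged matrix, no doublet removal, members kept among the variable genes, a gate without clustering, another pseudocount, normalisation, zone score and thinning depth.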

Additional observations from a re-analysis of the deposited data

Results flagged for a closer look

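Barcodes over the mitochondrial limit entered no comparison above, and the members were nonetheless read there at a higher level in the NASH diet library than in chow, which served as the control. In barcodes of 30 to 80% mitochondrial UMIs (463 chow and 2389 NASH diet barcodes) the Cyp4a10 group stood at 20.5 CPM in chow and 392 under the diet. The Acot sum stood there at 16.4 and 108. In barcodes over 80% (2570 and 1122) the Cyp4a10 group stood at 0.561 and 21.8 CPM, the Cyp4a12 pair at 2.81 and 9.94, and the Acot sum at 0.701 and 10.2. The Cyp4a12 pair in barcodes of 30 to 80% did not follow this order, at 181 in chow and 160 under the diet. As CPM counts mitochondrial UMIs in its total, levels in all these barcodes also move with their mitochondrial share. They are given without intervals.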

How the results depend on the processing

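All 27 alternative values of the 3 diet ratios, 42 of the 6 zone ratios and 21 of the 3 differences in share of cells kept their direction, and 71 of these 90 moved by less than their counting error. Log2 diet ratios of the Cyp4a10 group, the Cyp4a12 pair and the Acot sum were 4.28, 1.25 and 2.71. They moved to 4.64, 1.71 and 3.14 in cells of 10 to 20% mitochondrial UMIs, an alternative chosen after seeing the data, and to 4.13 and 1.04 for the first 2 with a mitochondrial limit of 50%, where the NASH diet class held 3873 cells with a median of 1491 UMIs. A pseudocount of 5 CPM, which by construction shrinks low levels, gave 4.12 for the Cyp4a10 group and 2.48 for the Acot sum. Log2 zone ratios were 1.52 and 1.38 in chow and 1.91, 1.21 and 2.27 under the diet. With the outermost sixths of cells in place of the 3 groups they became 1.86 and 1.60 in chow and 2.17, 1.42 and 2.53 under the diet. The limit of 50% gave 1.77 for the Cyp4a10 group under the diet, and a score from summed zone gene UMIs gave 1.29 for the Cyp4a12 pair there. Differences in share of cells of 55.8, 22.5 and 29.6 percentage points became 46.6, 18.7 and 17.2 when cells were thinned to 2000 UMIs, where fewer UMIs remain. The Acot difference was 37.4 without thinning, and that of the Cyp4a12 pair 26.4 without doublet removal. Of 290 alternative values of single members, 42 moved and 8 changed sign. The chow zone ratio of Cyp4a31, 0.02, became -0.12 with the other zone score, -0.32 with sixths, -0.10 with the limit of 50%, -0.11 in the merged matrix, -0.19 without doublet removal and -0.045 with members among the variable genes, and its NASH diet value of -0.22 became 0.084 with sixths. Cyp4a32 turned to a difference in share of -0.11 percentage points without doublet removal. Except where stated, the cause was not tested. No paired analysis was possible because there was 1 library per diet, and for the same reason no library could be left out.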

Other observations

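Outside hepatocytes, Acot1 and Acot2 were read in the phagocyte-like cluster, whose leading genes also included immunoglobulin genes. With 90 chow and 96 NASH diet cells at a median of 3995 and 1923 UMIs, Acot1 had 19 and 16 UMIs and Acot2 16 and 11, while Acot3 had 0 in both and Acot4 2 and 0. In chow, where Cyp4a10, Cyp4a14 and Cyp4a12a each had 0 UMIs in this cluster, Acot1 had 19 UMIs to 2 of Acot4, against 163 to 778 in hepatocyte-like cells. All 19 chow Acot1 UMIs lay in the 64 cells with at least 3 UMIs of C1qa, C1qb and Clec4f, a split chosen after the values were seen, where 23.4% of cells had one, and 0 lay in the other 26 cells, which allows up to 26.7 CPM at the upper 95% limit. The level in those 64 cells, 45.5 CPM (27.4 to 71.1), lay above the 3.48 of chow hepatocyte-like cells. Under the diet the level in the 33 such cells was 56.0 (22.5 to 115) and that in the other 63 cells 30.1 (13.8 to 57.1). Acot2 did not share this split. In chow it had 10 UMIs in the 64 cells, 24.0 CPM (11.5 to 44.1), and 6 in the other 26, 43.5 CPM (16.0 to 94.6). Under the diet it had 2 UMIs in the 33 cells and 9 in the other 63, 16.0 and 30.1 CPM. The endothelial-like cells had 0 and 5 Acot1 UMIs in 67 and 52 cells. The neutrophil-like cluster, with 24 chow and 77 NASH diet cells, had 0 and 22 UMIs of Acot1, 0 and 3 of Acot2, 0 and 12 of Acot3 and 3 and 64 of Acot4. Under the diet its Acot sum stood at 305 CPM (248 to 371), Cyp4a10 at 269, Cyp4a14 at 371 and Alb at 6870, where the phagocyte-like cluster had 63.7, 33.0, 2.36 and 1561.

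In the cluster led by cell cycle genes, 10 of 19 chow cells had an Acot1 UMI, with 45 UMIs in all or 80.7 CPM, of which 31.1% came from 1 cell. The 5 NASH diet cells of that cluster had 3 Acot1 UMIs. Its chow cells also carried hepatocyte RNA, with a median of 31512 UMIs, Alb at 18854 CPM and the Cyp4a12 pair at 118. Chow hepatocyte-like cells had a median of 23676 UMIs and 25304 and 139 CPM. This Acot1 level can therefore not be read as one outside hepatocytes. The mesenchymal-like cells had 1 Acot2 UMI in 18 chow cells and 12 in 19 NASH diet cells, spread over 6 cells.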
